A study of Mus musculus with 6 samples.

Results

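The lysosome and autophagy genes are 40 genes, chosen by symbol from the 21367 genes of the deposited expression table, and read in kidneys of *Ptpn6*+/mev and wild-type mice after renal ischemia-reperfusion injury (IRI). They comprise 8 cathepsins, 14 other lysosomal hydrolases and activator proteins, 10 genes of a membrane and proton pump class (which also holds the soluble protein of *Npc2*), and 8 autophagy genes with 2 transcription factors of the pathway among them. The study asked how gene expression after IRI differs when the phosphatase SHP-1, encoded by *Ptpn6*, is reduced. mRNA was sequenced from the left kidney of 3 *Ptpn6*+/mev mice, which are heterozygous for the viable motheaten allele, a splice-site mutation, and of 3 wild-type littermates, with 1 library per mouse. The mice were 7 weeks old and on a C57BL/6 background. Both groups underwent right nephrectomy and 34 min of clamping of the left renal pedicle, and tissue was taken after 24 h of reperfusion. Both groups were therefore injured, and uninjured kidneys were not analysed here. The allele is carried in every cell of the animal, so the comparison is not restricted to tubular or immune cells. Kidney tissue of each mouse was read as 1 sample, and in such bulk RNA fewer cells of a type and less RNA per cell cannot be told apart.

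Lysosomes are acidic organelles in which proteases, glycosidases, lipases and sulfatases break down material delivered by endocytosis or by autophagy. The proton pump of the lysosomal membrane, the V-ATPase, keeps the lumen acidic, and membrane glycoproteins shield the membrane from the enzymes. In autophagy a double membrane carrying lipidated LC3 and GABARAP proteins encloses cytoplasm and fuses with lysosomes. Proximal tubule cells of the kidney take up large amounts of filtered protein by endocytosis and are rich in lysosomes, and macrophages are rich in them as well. The transcription factors TFEB and TFE3 bind E-box elements of a common type in the promoters of many lysosomal and autophagy genes.

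Each gene had, for each mouse, an FPKM value (fragments scaled to transcript length and library size) and an estimated count. Total counts per library ranged from 10271590 to 12361745. Levels of different genes are compared below as FPKM, which takes account of transcript length. The mice are compared on CPM (counts scaled to a common library size after TMM normalization), the scale closest to the test. Differences are log2 fold changes of *Ptpn6*+/mev over wild-type with their standard error (SE), and adjusted p is the Benjamini-Hochberg false discovery rate (FDR) over 13036 tested genes in edgeR's quasi-likelihood test. In that test 18 genes of the whole table passed an FDR of 0.05, 9 higher and 9 lower in *Ptpn6*+/mev kidneys, which is 0.138% of those tested. *Ptpn6* mRNA itself was 11.9, 14.7 and 13.6 FPKM in the *Ptpn6*+/mev mice and 17.5, 10.9 and 15.4 FPKM in the wild-type mice. These ranges overlapped (log2 fold change -0.19, SE 0.17, adjusted p = 0.715). The overlap came from wild-type replicate 2, and without it the groups were apart at a log2 fold change of -0.33 (SE 0.12, adjusted p = 0.212). That library stood apart from the other libraries, being the lowest of the 6 for 30.2% of tested genes and the highest for 29.5%.

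All 40 genes were expressed in every kidney, and all passed the filter on low counts. Single values ran from 5.30 FPKM for *Npc1* to 1332 FPKM for *Ctsd*, and counts from 215 to 32420. The median gene had a mean of 48.1 FPKM, against 10.4 FPKM for all tested genes. Mean levels exceeded 100 FPKM for 14 genes and 500 FPKM for 4. Those 4 were *Ctsd* (cathepsin D, an aspartic protease), *Ctsl* (cathepsin L, a cysteine protease), *Psap* (prosaposin, the precursor of the saposins that present sphingolipids to hydrolases) and *Lamp1* (a main glycoprotein of the lysosomal membrane). *Sqstm1*, which encodes the autophagy receptor p62, followed at a mean of 497 FPKM. At the low end were *Cln3* at 14.7 FPKM, *Naglu* at 14.2 FPKM and *Npc1* at 7.07 FPKM, which encode a membrane protein, a heparan sulfate glycosidase and a cholesterol transporter. The 40 genes together took 1.57% to 1.63% of all counts in *Ptpn6*+/mev libraries and 1.41% to 1.51% in wild-type libraries. These are shares of raw counts, to which the most abundant genes add most. They do not include the TMM factors, which were 1.02 to 1.03 in *Ptpn6*+/mev and 0.93 to 1.01 in wild-type libraries.

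**Figure D1:**
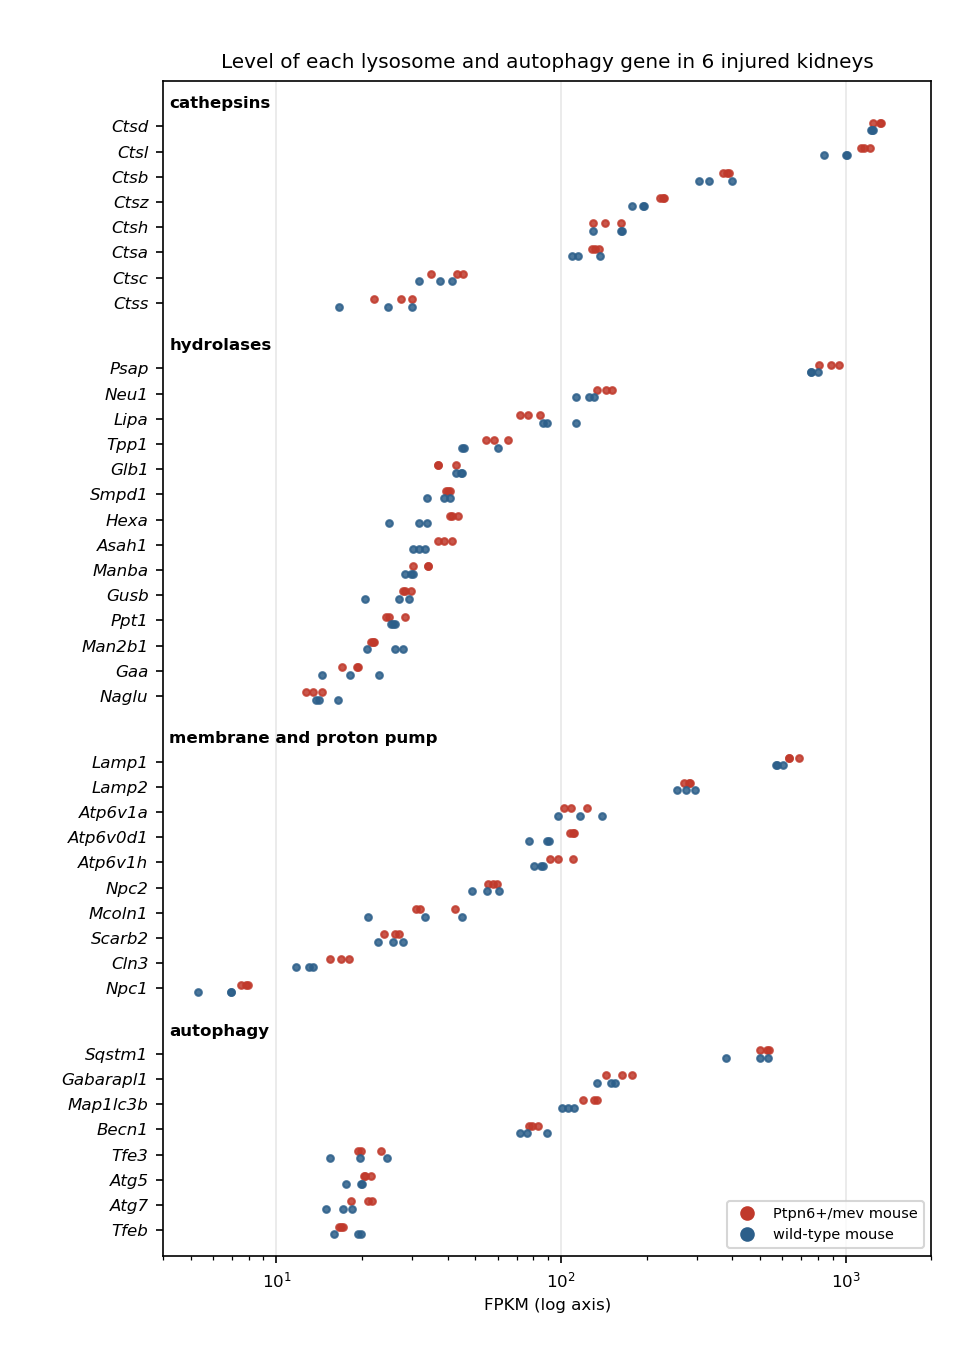
Level of each of the 40 genes in each mouse in FPKM on a log axis, grouped by class and ordered by mean level, with *Ptpn6*+/mev mice in red and wild-type mice in blue. Levels span from 5.30 to 1332 FPKM between genes, a far wider range than between the 6 mice of any single gene. The mice of *Mcoln1* ran from 21.0 to 44.7 FPKM.

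In the median gene the mice differed little on the CPM scale. The median coefficient of variation of CPM over the 40 genes was 4.57% among *Ptpn6*+/mev mice and 9.40% among wild-type mice, and it was larger in the wild-type group for 33 genes. Over all tested genes the medians were 9.75% and 13.5%, and 64.7% of genes had the larger value in the wild-type group. On the CPM scale wild-type replicate 2 was the lowest library for 16 of the 40 genes and the highest for 9. On the FPKM scale, which carries no TMM factor, it was the lowest for 24 and the highest for 3. The matching share of all tested genes was not counted on that scale.

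By the quasi-likelihood test 0 of the 40 genes passed an FDR of 0.05, where 0.138% of all tested genes did. DESeq2's Wald test (2.97% of all tested genes), edgeR's exact test (2.99%) and limma on log2(FPKM + 1) (0.169%) or log2(FPKM + 0.1) (0.146%) also called 0 of the 40. The lowest adjusted p belonged to *Hexa* at 0.176 and ranged from 0.0679 to 0.517 for that gene over the alternatives. At an unadjusted p under 0.05 there were 9 genes, or 22.5% of the 40, against 12.2% of all tested genes. Of these, 6 were higher in *Ptpn6*+/mev kidneys (*Hexa*, *Atp6v0d1*, *Mcoln1*, *Cln3*, *Ctsl* and *Map1lc3b*), where 5.53% of all tested genes were, and 3 were lower (*Lipa*, *Man2b1* and *Glb1*), where 6.71% were. DESeq2 gave 7 genes (17.5%) and the exact test 3 (7.5%) at the same threshold, where each gave 11.3% of all tested genes. In the quasi-likelihood test the count was 4, 3 and 2 (10%, 7.5% and 5%) without *Ptpn6*+/mev replicates 1, 2 and 3, against 8.68%, 10.4% and 8.05% of all tested genes. It was 6, 7 and 8 (15%, 17.5% and 20%) without wild-type replicates 1, 2 and 3, against 9.08%, 17.3% and 14.1%. The share of the 40 genes thus lay below that of all tested genes without *Ptpn6*+/mev replicate 2 or 3 and near it without *Ptpn6*+/mev replicate 1 or wild-type replicate 2.

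The estimates were small and narrow. Log2 fold changes ran from -0.38 to 0.41, and 28 of 40 lay above 0, or 70.0% against 49.5% of all tested genes. Their median was 0.08, against -0.002 for all tested genes. The median SE was 0.10 on the log2 scale, against 0.15 over all tested genes. The 95% confidence interval of each of the 40 genes lay within 2-fold in either direction, and that of 38 lay within 1.5-fold. The exceptions were *Hexa*, whose interval reached 0.66 on the log2 scale, and *Lipa*, whose interval reached -0.72.

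Many of the small estimates depended on single libraries. Without *Ptpn6*+/mev replicates 1, 2 and 3, respectively 15, 10 and 10 of the 40 estimates changed sign or moved by over 1.5 times. Without wild-type replicates 1, 2 and 3 it was 15, 22 and 16. This held for 28 genes with at least 1 library left out. The other 12 were *Ctsl*, *Ctsz*, *Glb1*, *Hexa*, *Man2b1*, *Naglu*, *Asah1*, *Neu1*, *Cln3*, *Mcoln1*, *Atp6v0d1* and *Map1lc3b*. Of the 9 genes with an unadjusted p under 0.05, *Lipa* alone moved that far, and only without wild-type replicate 2. The 8 that changed sign without that library were *Ctsd*, *Ctss*, *Smpd1*, *Lamp2*, *Npc2*, *Tfe3*, *Sqstm1* and *Becn1*, and *Ctsc*, *Gaa*, *Ppt1*, *Gabarapl1* and *Atg5* changed sign without another. Among the genes that kept their sign, log2 fold changes with 1 library left out ran from 0.05 to 0.16 for *Ctsa*, 0.03 to 0.17 for *Ctsb*, 0.01 to 0.21 for *Gusb*, 0.06 to 0.15 for *Manba*, 0.06 to 0.19 for *Psap* and 0.10 to 0.29 for *Tpp1*. They ran from 0.04 to 0.11 for *Lamp1*, -0.14 to -0.01 for *Scarb2*, 0.14 to 0.27 for *Npc1*, 0.06 to 0.21 for *Atp6v1h*, -0.21 to -0.09 for *Tfeb* and 0.07 to 0.16 for *Atg7*. Ranges for *Ctsh*, *Lipa* and *Atp6v1a* are given with those genes.

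CPM values of the 3 *Ptpn6*+/mev mice did not overlap those of the 3 wild-type mice for 13 genes, or 32.5%, where 19.4% of all tested genes had groups apart. In 10 of them the *Ptpn6*+/mev mice were higher (9.64% of all tested genes) and in 3 lower (9.80%). On the FPKM scale the groups were apart for 16 genes, or 40%, against 20.4% of all tested genes, with 15 higher (14.0%) and 1 lower (6.38%). The scales do not name the same genes, since 10 were apart on both, 6 on FPKM only and 3 on CPM only. In the limma fits the median of all tested genes stood at 0.06 to 0.08 on the log2 FPKM scale, against -0.002 in the count-based test.

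**Figure D2:**
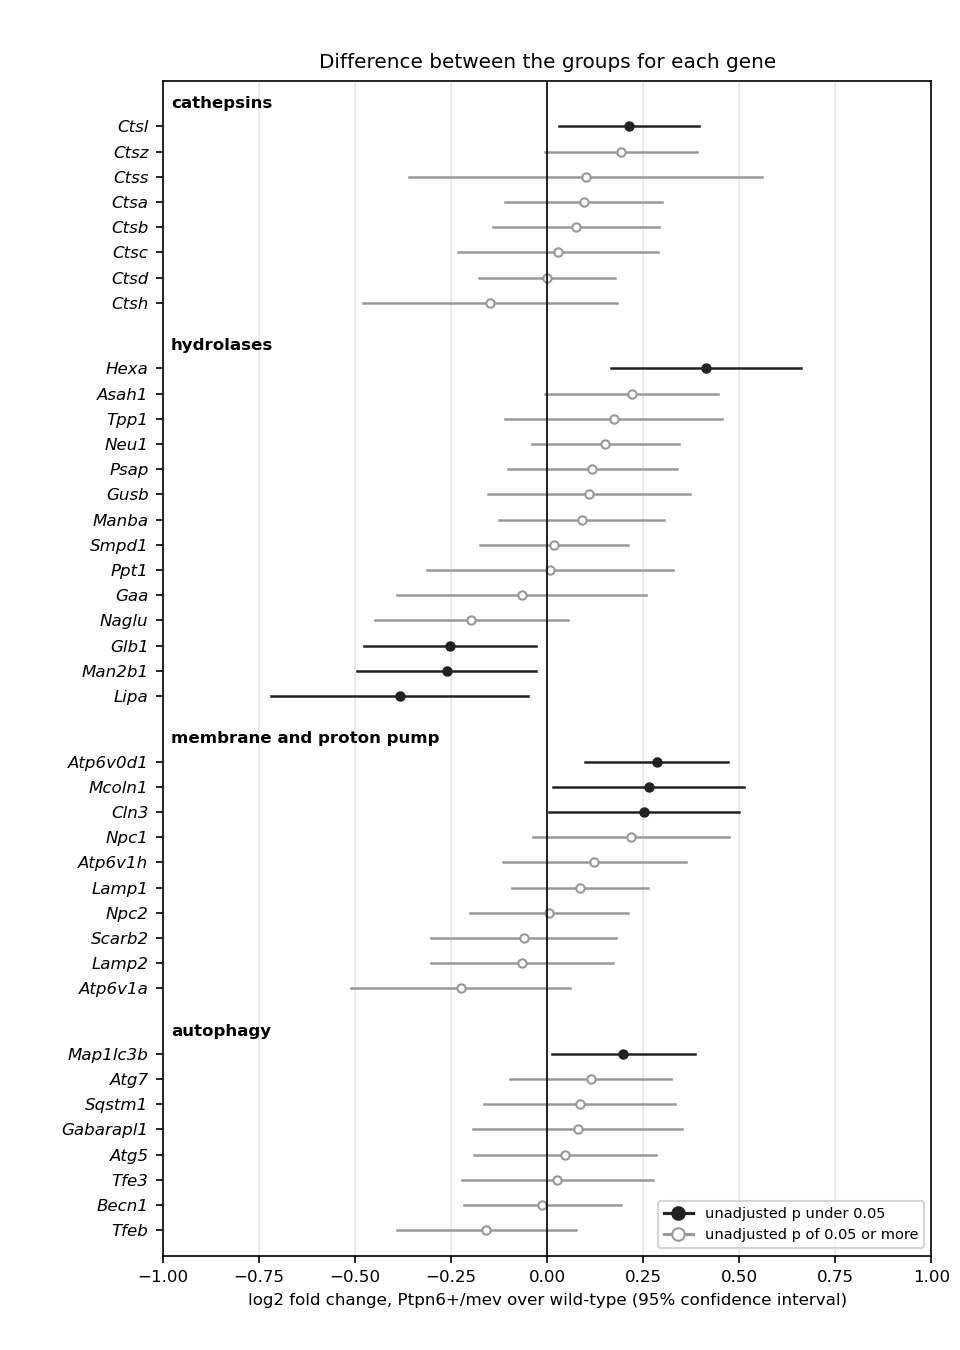
Log2 fold change of *Ptpn6*+/mev over wild-type for each of the 40 genes with its 95% confidence interval, by class, with filled points for an unadjusted p under 0.05. The 9 filled intervals exclude 0 before adjustment, and every interval stays between -0.72 and 0.66.

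Cathepsins are lysosomal proteases, and *Ctsl* was the one cathepsin of 8 with an unadjusted p under 0.05 (12.5%, against 12.2% of all tested genes). *Ctsl* (ENSMUSG00000021477, chromosome 13, 64359337 to 64370890 on the minus strand of GRCm38) measured 1494, 1604 and 1626 CPM in the *Ptpn6*+/mev mice and 1404, 1288 and 1384 CPM in the wild-type mice. Every *Ptpn6*+/mev mouse was above every wild-type mouse, at a log2 fold change of 0.21 (SE 0.08, adjusted p = 0.325). *Ctsz* (cathepsin Z, a carboxypeptidase) measured 315, 323 and 325 CPM against 259, 302 and 282 CPM. Its groups did not overlap either, at a log2 fold change of 0.19 (SE 0.09, adjusted p = 0.422).

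The other 6 cathepsins had overlapping CPM ranges. *Ctsa* (a carboxypeptidase that protects neuraminidase and galactosidase) had a log2 fold change of 0.09, *Ctsb* (a cysteine protease) of 0.07 and *Ctss* (a cysteine protease of antigen presenting cells) of 0.10. *Ctsc*, which activates granule serine proteases, stood at 0.03. *Ctsh*, an aminopeptidase, was at -0.15 (95% confidence interval -0.48 to 0.18), and ran from -0.26 to -0.007 with 1 library left out, the last without wild-type replicate 2. *Ctss* was the least precise of the 40 genes, with an SE of 0.20 and 24.3 to 40.9 CPM among the wild-type mice.

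For *Ctsd*, the most abundant of the 40 genes, the scales gave different orders of the mice. Its CPM values were 2775, 2620 and 2750 in *Ptpn6*+/mev mice and 2668, 2876 and 2606 in wild-type mice, and the log2 fold change was -0.001 (95% confidence interval -0.18 to 0.18). On the FPKM scale the same gene read 1332, 1252 and 1324 against 1242, 1250.4 and 1229, so that its groups were just apart.

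Among the 14 hydrolases and activators, 4 genes (28.6%) had an unadjusted p under 0.05, against 12.2% of all tested genes. Of these 1 was higher and 3 were lower, where 5.53% and 6.71% of all tested genes were. *Hexa* (ENSMUSG00000025232, chromosome 9, 59539540 to 59565109, plus strand) encodes the alpha subunit of beta-hexosaminidase, which removes the terminal sugar of GM2 ganglioside. It measured 80.9, 85.4 and 79.5 CPM in the *Ptpn6*+/mev mice and 68.0, 53.5 and 62.9 CPM in the wild-type mice, without overlap. The log2 fold change of 0.41 (SE 0.11, unadjusted p = 0.00496, adjusted p = 0.176) was the largest of the 40 genes. Without wild-type replicate 2, the lowest mouse, it was 0.33 (adjusted p = 0.0974).

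The genes at the other end of the class were *Lipa*, *Man2b1* and *Glb1*. *Lipa* (ENSMUSG00000024781, chromosome 19, 34492318 to 34527474, minus strand) encodes lysosomal acid lipase, which hydrolyses cholesteryl esters and triglycerides. It measured 223, 246 and 208 CPM against 267, 362 and 255 CPM, so each *Ptpn6*+/mev mouse was below each wild-type mouse. The log2 fold change was -0.38 (SE 0.14, adjusted p = 0.331), and without wild-type replicate 2, the highest mouse, it was -0.20 (adjusted p = 0.287). With any 1 library left out it ran from -0.48 to -0.20.

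*Man2b1* (ENSMUSG00000005142, chromosome 8, 85083270 to 85098282, plus strand) encodes lysosomal alpha-mannosidase. Its CPM values were 82.2, 81.9 and 80.1 in *Ptpn6*+/mev mice and 100.4, 85.8 and 106 in wild-type mice. These did not overlap, at a log2 fold change of -0.26 (SE 0.10, adjusted p = 0.344), and the adjusted p without wild-type replicate 2 was 0.0756. *Glb1* (ENSMUSG00000045594, chromosome 9, 114401076 to 114474898, plus strand) encodes beta-galactosidase, the enzyme behind senescence-associated galactosidase staining. It measured 100.2, 87.1 and 86.5 CPM against 103, 116 and 107 CPM, without overlap (log2 fold change -0.25, SE 0.10, adjusted p = 0.341). On the FPKM scale the groups of *Man2b1* and *Glb1* overlapped, while those of *Lipa* remained apart.

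A further 2 hydrolases had groups apart at an unadjusted p above 0.05. *Asah1*, acid ceramidase, measured 106, 101 and 111 CPM in the *Ptpn6*+/mev mice and 88.8, 100.1 and 83.7 CPM in the wild-type mice (log2 fold change 0.22, SE 0.10, adjusted p = 0.419). *Neu1*, the lysosomal sialidase, measured 366, 351 and 325 CPM against 314, 302 and 322 CPM (log2 fold change 0.15, SE 0.08, adjusted p = 0.531). In both genes the nearest mice of the groups lay close together.

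The remaining 8 genes of the class overlapped on the CPM scale. *Tpp1*, a tripeptidyl peptidase, had a log2 fold change of 0.17, *Psap* of 0.12, *Gusb* (beta-glucuronidase) of 0.11 and *Manba* (beta-mannosidase) of 0.09. *Smpd1*, acid sphingomyelinase, and *Ppt1*, a thioesterase, were at 0.02 and 0.01. *Gaa*, which degrades lysosomal glycogen, was at -0.07 and *Naglu* at -0.20. The lysosomal hydrolases thus held both the highest and the lowest estimate among the 40 genes. Of the 14, 9 lay above 0 (64.3%, against 49.5% of all tested genes), with a class median of 0.05. That median ran from 0.035 to 0.084 with 1 library left out, and was 0.12 on both log2 FPKM scales.

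**Figure D3:**
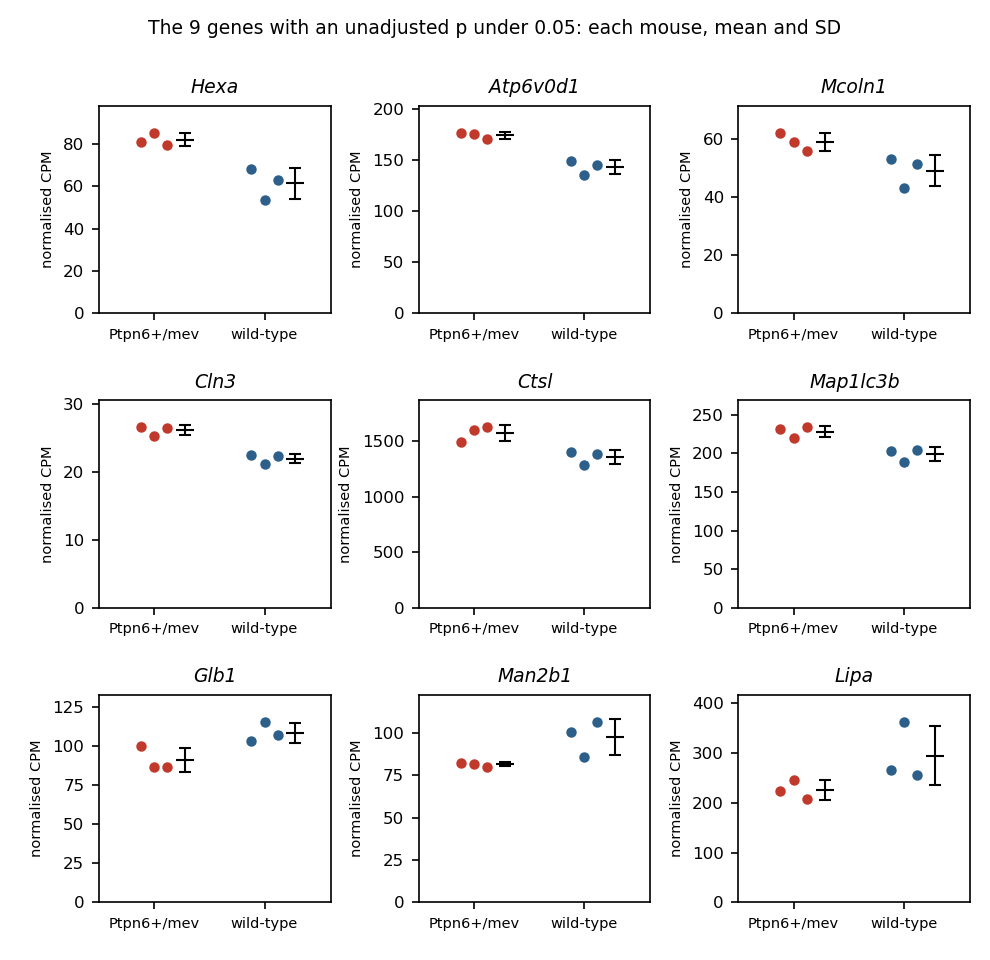
TMM-normalised CPM of each mouse for the 9 genes with an unadjusted p under 0.05, from an axis start of 0, with the mean and SD of 3 mice beside the points. In each panel the groups do not overlap: *Hexa* reads 79.5 to 85.4 CPM in *Ptpn6*+/mev mice and 53.5 to 68.0 CPM in wild-type mice, and *Lipa* 208 to 246 CPM and 255 to 362 CPM.

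In the membrane and proton pump class, 3 of 10 genes (30%) had an unadjusted p under 0.05, against 12.2% of all tested genes. Each was higher in *Ptpn6*+/mev kidneys, where 5.53% of all tested genes were. *Atp6v0d1* (ENSMUSG00000013160, chromosome 8, 105524465 to 105566047, minus strand) encodes the d subunit of the membrane sector of the V-ATPase, which joins the sector to the central stalk. It measured 177, 176 and 171 CPM in the *Ptpn6*+/mev mice and 149, 136 and 145 CPM in the wild-type mice, with a wider gap between the groups than the range within either. The log2 fold change was 0.29 (SE 0.08, unadjusted p = 0.0076, adjusted p = 0.207).

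Estimates of the pump subunits lay on both sides of 0. *Atp6v1a*, the catalytic subunit of the cytosolic sector, measured 304, 256 and 265 CPM against 327, 364 and 274 CPM, overlapping at a log2 fold change of -0.22 (SE 0.12, adjusted p = 0.536). With 1 library left out it ran from -0.33 to -0.12, the last without wild-type replicate 2. That mouse was the highest on CPM but the lowest on FPKM, where *Atp6v1a* read 123, 102 and 108 against 139, 97.8 and 116. The transcript length implied by the ratio of its count to FPKM ran from 2337 to 3451 bases between mice. *Atp6v1h*, a regulatory subunit of that sector, overlapped as well at 0.12 (SE 0.10). No test compared the subunits with each other.

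*Mcoln1* (ENSMUSG00000004567, chromosome 8, 3500457 to 3515232, plus strand) encodes TRPML1, the calcium channel of the lysosomal membrane. Its CPM values were 62.2, 59.1 and 55.8 against 53.0, 43.0 and 51.3, without overlap (log2 fold change 0.26, SE 0.11, adjusted p = 0.370). Its FPKM values, 42.3, 30.9 and 32.0 against 44.7, 21.0 and 33.1, overlapped widely. The transcript length implied by the ratio of count to FPKM ran from 1177 to 1949 bases between mice for *Mcoln1*, so its FPKM rest on lengths that differ between mice. The implied length varied by more than 1.1-fold between mice in 9 of the 40 genes.

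*Cln3* (ENSMUSG00000030720, chromosome 7, 126571207 to 126585817, minus strand) encodes the membrane protein lost in juvenile neuronal ceroid lipofuscinosis. It measured 26.5, 25.3 and 26.5 CPM in *Ptpn6*+/mev mice and 22.4, 21.1 and 22.3 CPM in wild-type mice, without overlap, at a log2 fold change of 0.25 (SE 0.11, adjusted p = 0.400). *Npc1*, which exports cholesterol from the lysosome, measured 40.03, 40.9 and 38.3 CPM against 36.5, 29.9 and 36.0 CPM (log2 fold change 0.22, SE 0.11, adjusted p = 0.487), and its groups were apart too.

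*Npc2*, the soluble cholesterol carrier that hands its cargo to the *Npc1* product, stood at a log2 fold change of 0.005 (95% confidence interval -0.20 to 0.21). The lysosomal glycoproteins also differed little, with *Lamp1* at 0.09 (95% confidence interval -0.09 to 0.26) and *Lamp2* at -0.07 (-0.30 to 0.17). *Scarb2*, the receptor that delivers beta-glucocerebrosidase, was at -0.06. In the class as a whole 7 of 10 genes lay above 0 (70%, against 49.5% of all tested genes). The class median was 0.10 (0.05 to 0.14 with 1 library left out).

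The promoters of these genes were searched for E-boxes of the kind that TFEB and TFE3 bind. RefSeq promoters (250 bases before to 50 after each start, GRCm38.p6) were matched by symbol for 34 of the 40 genes. These genes had 40 promoters in the table. The E-box CACGTG was present in 13 of these promoters (32.5%), 1 for each of 13 genes, against 7.15% of 32851 promoters. The longer core TCACGTGA, which contains CACGTG, was present in 6 (15%), 1 for each of 6 genes, against 0.974% of all promoters. These 6 were *Atp6v0d1*, *Atp6v1a*, *Cln3*, *Ctsa*, *Ctsd* and *Mcoln1*. The palindrome that adds a G before and a C after this core was found in 1 of the 40 (2.5%), that of *Cln3*, against 0.326% of all promoters. Each motif reads the same on both strands, and a match describes the sequence, not binding. The motifs were picked as a type known from promoters of many lysosomal genes. A higher share here is therefore not a new result.

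Promoters are printed for the 3 genes that held TCACGTGA and had an unadjusted p under 0.05, so that the position of the element can be seen. Each runs 5′ to 3′ on the strand of the gene, from 250 bases before to 20 bases after the RefSeq start, and capitals mark CACGTG or the longer motif around it. *Atp6v0d1* is chr8:105566045-105566314 (minus strand), *Cln3* is chr7:126583217-126583486 (minus strand) and *Mcoln1* is chr8:3500269-3500538 (plus strand). The RefSeq starts of *Cln3* and *Mcoln1* lie inside the gene spans of GENCODE given above.
Atp6v0d1: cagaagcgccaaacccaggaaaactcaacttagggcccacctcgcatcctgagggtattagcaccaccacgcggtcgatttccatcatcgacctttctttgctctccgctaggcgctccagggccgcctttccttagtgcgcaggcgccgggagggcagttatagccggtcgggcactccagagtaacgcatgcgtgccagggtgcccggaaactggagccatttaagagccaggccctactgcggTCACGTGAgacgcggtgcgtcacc
Cln3: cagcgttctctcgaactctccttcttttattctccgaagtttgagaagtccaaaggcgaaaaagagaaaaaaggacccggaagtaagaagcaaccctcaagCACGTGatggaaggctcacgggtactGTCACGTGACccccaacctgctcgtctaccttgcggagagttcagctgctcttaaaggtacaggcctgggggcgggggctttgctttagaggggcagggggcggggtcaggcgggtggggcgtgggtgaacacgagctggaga
Mcoln1: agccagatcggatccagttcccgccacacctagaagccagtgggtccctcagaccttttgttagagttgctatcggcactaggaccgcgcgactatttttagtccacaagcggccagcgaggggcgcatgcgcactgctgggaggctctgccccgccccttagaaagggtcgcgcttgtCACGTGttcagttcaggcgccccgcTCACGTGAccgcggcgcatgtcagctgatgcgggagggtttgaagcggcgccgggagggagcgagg

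In *Atp6v0d1* the element begins 4 bases before the start and spans it. In *Mcoln1* it begins 46 bases before the start, with another E-box at 71 bases, and in *Cln3* the palindrome begins 123 bases before the start, with another E-box at 149 bases. A further promoter of *Cln3* in the table, chr7:126585768-126586067 at the start of the GENCODE gene, held no E-box, and *Ctsa* likewise had 1 promoter with the element and 1 without. Estimates of the 6 genes with TCACGTGA lay on both sides of 0. Their log2 fold changes ran from -0.22 for *Atp6v1a* (-0.12 without wild-type replicate 2) through -0.001 for *Ctsd* and 0.09 for *Ctsa* to 0.29 for *Atp6v0d1*, with a median of 0.17 and 4 above 0. The 28 matched genes without it had a median of 0.06, with 20 above 0.

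Of the 8 autophagy genes, *Map1lc3b* alone had an unadjusted p under 0.05 (12.5%, near the 12.2% of all tested genes). *Map1lc3b* (ENSMUSG00000031812, chromosome 8, 121590361 to 121598760, plus strand) encodes LC3B, which is lipidated onto the autophagosome membrane. It measured 231, 219.9 and 234 CPM in the *Ptpn6*+/mev mice and 203, 189 and 205 CPM in the wild-type mice, and the groups did not overlap. The log2 fold change was 0.20 (SE 0.08, adjusted p = 0.367). An mRNA level does not measure lipidation or flux, which depend on the protein.

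The receptor and the other conjugation genes overlapped. *Sqstm1* measured 1080.2, 1108 and 1017 CPM against 1054, 860.1 and 1109 CPM (log2 fold change 0.08, SE 0.11, adjusted p = 0.825), where wild-type replicate 2 was the low mouse. *Gabarapl1*, a relative of LC3, was at 0.08, and *Atg7* and *Atg5*, which act in the conjugation of LC3, were at 0.11 and 0.05. *Becn1*, a subunit of the lipid kinase that starts the autophagosome, was at -0.01 (95% confidence interval -0.22 to 0.19).

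The transcription factors themselves, at mean levels of 17.6 FPKM for *Tfeb* and 20.3 FPKM for *Tfe3*, were among the less abundant of the 40 genes, and their groups overlapped. *Tfeb* measured 38.6, 39.5 and 38.0 CPM against 47.0, 39.4 and 43.1 CPM (log2 fold change -0.16, SE 0.10, adjusted p = 0.601). *Tfe3* was at 0.03 (SE 0.11). Both factors are regulated by phosphorylation and transport to the nucleus, which mRNA levels do not show.

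Class medians were read in each mouse as deviations from each gene's mean over the 6 mice on the log2 CPM scale. For all 40 genes the medians were 0.03, 0.04 and 0.03 in *Ptpn6*+/mev mice and -0.06, -0.05 and -0.03 in wild-type mice. The membrane and proton pump class read 0.12, 0.02 and 0.04 against -0.05, -0.05 and -0.08, and the cathepsins 0.01, 0.10 and 0.08 against -0.07, -0.04 and -0.03. In the hydrolases and the autophagy genes the mice of the groups overlapped. As the genes were chosen with earlier results known, these medians carry no test.

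**Figure D4:**
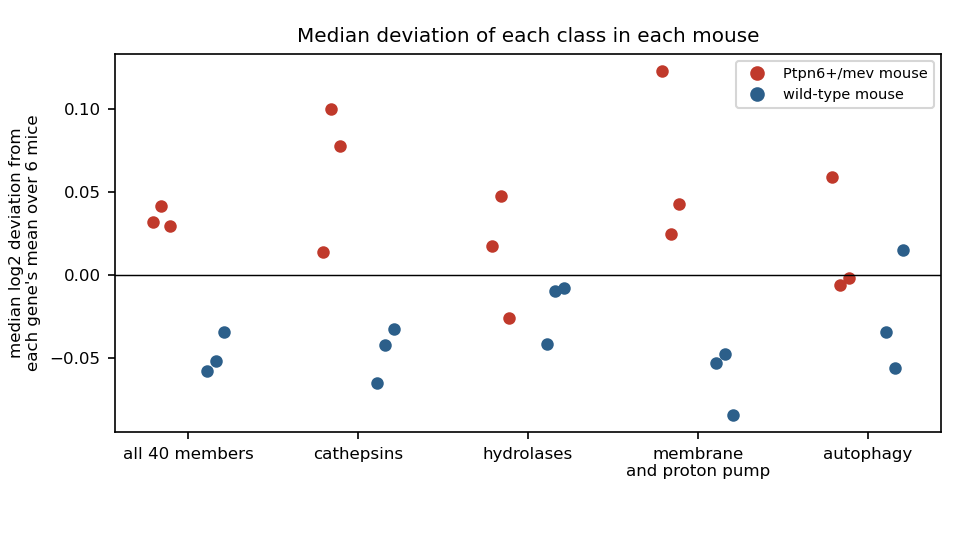
Median deviation of each class in each mouse, on the log2 CPM scale, from the mean of each gene over 6 mice, with *Ptpn6*+/mev mice in red and wild-type mice in blue. The groups are apart for all 40 genes, the cathepsins and the membrane and proton pump class, by differences of group means of 0.08, 0.11 and 0.12, and overlap for the hydrolases and the autophagy genes.

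Another 140 genes of the same pathways were read beside them, in 6 lists. Of the 139 tested, 0 passed an FDR of 0.05 in the edgeR fit, and 19 (13.7%) had an unadjusted p under 0.05, 11 higher and 8 lower, against 12.2% of all tested genes. Their median log2 fold change was -0.02, and 63 lay above 0 (45.3%, against 49.5% of all tested genes). The KEGG annotation of the deposited table puts 31 of the 40 genes in its lysosome pathway. Of 85 other tested genes of that pathway 4 were higher and 7 lower at an unadjusted p under 0.05 (12.9%), with a median of -0.02. The KEGG autophagy pathway holds 9 of the 40 genes. Of 115 other tested genes there 11 were higher and 5 lower (13.9%), with 63 above 0 (54.8%) and a median of 0.03.

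Other V-ATPase subunits had a median of 0.06 over 20 genes. At an unadjusted p under 0.05, 2 were higher and 0 lower (10%, against 12.2% of all tested genes). The most abundant, *Atp6v0c*, the proteolipid ring subunit, was at -0.04 (SE 0.07), and *Atp6v0e* was at 0.19 (SE 0.09, adjusted p = 0.444). *Atp6v0b*, named after its values were seen, measured 379, 358 and 353 FPKM in *Ptpn6*+/mev mice and 263, 253 and 284 FPKM in wild-type mice (log2 fold change 0.39, SE 0.08, adjusted p = 0.104). That adjusted p was the lowest in the 6 lists.

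Other hydrolases and activators again pointed both ways, with a median of -0.02. At an unadjusted p under 0.05, 2 of 26 were higher and 4 lower (23.1%, against 12.2% of all tested genes). *Fuca1*, the lysosomal fucosidase, was at -0.35 (SE 0.13, adjusted p = 0.321), and *Smpdl3a*, a sphingomyelinase-like phosphodiesterase, at -0.07 (SE 0.22). Among 9 other cathepsins and peptidases, *Scpep1*, a serine carboxypeptidase, was at 0.28 (SE 0.10, adjusted p = 0.316) and *Lgmn*, legumain, at -0.07 (SE 0.14).

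Of 39 other autophagy genes, 2 were higher and 2 lower at an unadjusted p under 0.05 (10.3%, against 12.2% of all tested genes). The median was -0.05. *Gabarap*, the most abundant of them, measured 313, 327 and 312 FPKM against 235, 253 and 262 FPKM (log2 fold change 0.27, SE 0.08, adjusted p = 0.234), and *Vamp8*, which serves fusion with the lysosome, was at -0.11 (SE 0.11). The 24 genes of the TFEB family and of nutrient signalling at the lysosome had a median of 0.04. At that threshold 3 were higher and 0 lower (12.5%, near the 12.2% of all tested genes). *Lamtor1*, the membrane anchor of the Ragulator complex, was at 0.29 (SE 0.11, adjusted p = 0.359) and *Lamtor5*, a further subunit, at -0.04.

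Other membrane proteins and sorting receptors, 21 genes, had a median of 0.002. At an unadjusted p under 0.05, 1 was higher and 2 were lower (14.3%, against 12.2% of all tested genes). *Cd63*, a tetraspanin of late endosomes, was at -0.12 (SE 0.08), and *Laptm4a* at -0.03 (SE 0.19). The lower genes were *Cubn* and *Lrp2*, named after their values were seen, which encode the endocytic receptors cubilin and megalin of the proximal tubule. Both are also among the proximal tubule markers counted below. *Lrp2* measured 28.55, 29.22 and 22.65 FPKM against 37.52, 26.01 and 41.33 FPKM, with overlapping groups (log2 fold change -0.44, SE 0.16, adjusted p = 0.316). *Cubn* measured 5.20, 8.33 and 5.01 FPKM against 11.3, 9.46 and 11.02 FPKM (log2 fold change -0.84, SE 0.19, adjusted p = 0.131).

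Since the lysosomal genes are abundant in proximal tubule cells and macrophages, markers of both were read in the same libraries. Of 12 proximal tubule markers, 11 lay below 0, where 49.5% of all tested genes lay above 0. At an unadjusted p under 0.05, 6 were lower and 0 higher, where 6.71% and 5.53% of all tested genes were. Of these 6, *Slc22a8* (an organic anion transporter named after its values were seen) had an FDR under 0.05 (adjusted p = 0.0443). The 12 markers had a median of -0.45. Their summed level was 3336 to 4110 FPKM in *Ptpn6*+/mev mice and 3025 to 11878 FPKM in wild-type mice. Among the wild-type mice *Kap*, an androgen-responsive tubular gene, reached 10201 FPKM in replicate 2. *Slc27a2*, a fatty acid transporter and the next most abundant marker, was at -0.40 (SE 0.19, adjusted p = 0.447). Of 15 tested macrophage markers, 12 lay above 0 (80.0%, against 49.5% of all tested genes), with a median of 0.18. Among these markers 0 had an unadjusted p under 0.05, where 12.2% of all tested genes did. Their summed level, led by *Lyz2* and *Cd14*, was 211, 322 and 328 FPKM in *Ptpn6*+/mev mice and 300.4, 176 and 259 FPKM in wild-type mice. The lowest sum was that of wild-type replicate 2, and how many of the 12 signs rest on that library was not tested.

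Neutrophil markers, led by *S100a9* and *S100a8*, summed to 26.4 to 62.0 FPKM against 26.9 to 49.6 FPKM, and lymphocyte markers, led by *Nkg7* and *Cd8a*, to at most 3.07 FPKM, with 0 of 8 passing the filter on low counts. Tubular injury markers, led by *Spp1* and *Clu*, summed to 26300 to 32232 FPKM and 29669 to 38447 FPKM. At an unadjusted p under 0.05, 3 of 8 were higher and 1 lower, where 5.53% and 6.71% of all tested genes were. Distal nephron markers, led by *Umod* and *Aqp2*, had 1 of 9 higher and 1 lower at that threshold (22.2%, against 12.2% of all tested genes). Endothelial markers, led by *Pecam1* and *Emcn*, summed to 131 to 133 FPKM and 55.7 to 142 FPKM, and fibroblast markers, led by *Col3a1* and *Col1a1*, to 113 to 181 FPKM and 44.4 to 189.9 FPKM. In both of these lists the lowest sum was that of wild-type replicate 2. The part of these cells in the values of the 40 genes was not tested.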

How the data were processed

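mRNA was measured in 6 kidney libraries, 3 *Ptpn6*+/mev and 3 wild-type, grouped by the sample titles. The authors aligned reads to GRCm38.p5 with TopHat and deposited, for 21367 genes, estimated counts that need not be whole (fractional for 1744 genes, 8 of the 40 members among them) and FPKM values from Cufflinks. The submitters' processing notes also name Bowtie2, TopHat2 2.0.3.12 and RSEM, and which of these made the expected counts is not given in the sources used here. A fractional count can arise where reads are shared between similar genes. The table also holds Gene Ontology and KEGG annotations. Of the total, 16529 genes had a count.

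Rounded counts entered edgeR 4.0.16 (R 4.3.3), with filterByExpr, TMM factors, the quasi-likelihood F-test and Benjamini-Hochberg adjustment over 13036 genes. CPM are counts over TMM-scaled library sizes. Alternatives were DESeq2 1.42.0 (size factors, Wald test), upper quartile normalization, edgeR's exact test, limma 3.58.1 on log2(FPKM + 1) and log2(FPKM + 0.1), a block for the replicate number, a stricter filter of 10 counts per library, no filter, and each library left out. Scripts were tested on simulated data. Tables were made with Python 3.11.15, pandas 2.3.3 and numpy 2.4.6, and figures with matplotlib 3.10.9.

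The members and lists were chosen with earlier results of these data known, so lists have counts and medians and no test. The text names all 40 members and, from each pathway or marker list, the 2 genes with the highest mean FPKM and any pathway gene at an FDR under 0.05, other names being given as chosen after their values were seen. The result of 1 marker list is not reported here. The markers hold 1 symbol, *Itgam*, that 2 Ensembl identifiers share. Positions come from GENCODE M21 (GRCm38), and promoters from RefSeq (GRCm38.p6). The mice are separate animals, and depth limited genes near 0 counts, which none of the members was.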

Additional observations from a re-analysis of the deposited data

How the results depend on the processing

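No member reached an FDR under 0.05 under any of the 15 alternatives. The count of all tested genes at an FDR under 0.05, 18, was 387 with DESeq2's Wald test, 390 with edgeR's exact test, 52 with no filter on low counts, and 1 to 231 with 1 library left out (4, 12 and 1 without *Ptpn6*+/mev replicates 1, 2 and 3, and 9, 231 and 65 without wild-type replicates 1, 2 and 3). The count of members at an unadjusted p under 0.05, 9, was 3 with the exact test (7.5%, against 11.3% of all tested genes) and 2 to 8 with 1 library left out (5% to 20%, against 8.05% to 17.3% of all tested genes), the lowest without *Ptpn6*+/mev replicate 3. With the replicate number as a block, 1 gene of all tested had an FDR under 0.05 and 3 members (7.5%, against 9.21% of all tested genes) had an unadjusted p under 0.05. Same-numbered mice did not deviate together (correlations -0.14, -0.18 and -0.13), and no sample correlated best with its own number. Deviations from a mean of 3 mice sum to 0 within a group. These correlations therefore cannot settle whether the numbers pair the mice, and no pairing is stated. Members with non-overlapping groups, 13, were 14 to 18 with 1 library left out, where 25.9% to 36.3% of all tested genes were apart, and this alternative and FPKM in its place (16) were chosen after seeing the data. Class medians on log2(FPKM + 1) and log2(FPKM + 0.1) were 0.151 and 0.153 for the cathepsins, 0.12 and 0.124 for the hydrolases, 0.146 and 0.148 for the membrane and proton pump class, 0.129 and 0.132 for autophagy genes. With 1 library left out they ran from 0.037 to 0.133 for the cathepsins, from 0.035 to 0.084 for the hydrolases, from 0.052 to 0.139 for the membrane and proton pump class, from 0.025 to 0.085 for autophagy genes. Of 600 estimates of members over the alternatives, 566 kept their sign and 34, in 14 members whose log2 fold change was 0.10 or less in size, did not. The sign of *Ctsd* changed with upper quartile normalization (0.00673), no filter (0.000462), a minimum of 10 counts per library (1.54e-05) and the replicate block (0.000164). On the limma scales, in the order of the pseudocounts, signs changed for *Ctsd* (0.0699 and 0.0699), *Gaa* (0.0223 and 0.0244), *Lamp2* (0.0182 and 0.0182), *Scarb2* (0.0123 and 0.0129), *Becn1* (0.0157 and 0.0160). With 1 library left out, the estimates of members whose sign changed ran from -0.044 to 0.130 for *Ctsc*, from -0.030 to 0.049 for *Ctsd*, from -0.067 to 0.292 for *Ctss*, from -0.176 to 0.090 for *Gaa*, from -0.018 to 0.049 for *Smpd1*, from -0.090 to 0.141 for *Ppt1*, from -0.142 to 0.044 for *Lamp2*, from -0.032 to 0.076 for *Npc2*, from -0.055 to 0.115 for *Tfe3*, from -0.011 to 0.159 for *Sqstm1*, from -0.017 to 0.177 for *Gabarapl1*, from -0.031 to 0.118 for *Atg5*, from -0.054 to 0.044 for *Becn1*. The cause was not tested.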
